A study of Mus musculus with 4 samples.

Results

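The cells described here are neuroblasts and neural progenitors, the young neurons and their dividing precursors, in single-cell RNA sequencing libraries of glia-enriched brain suspensions. A droplet barcode was counted as one of them when it held at least 1000 unique molecular identifiers (UMIs, each 1 captured RNA molecule) and 500 genes, at most 20% of its UMIs from mitochondrial genes, and at least 1 UMI of 4 or more of the 8 genes Dcx, Sox11, Dlx1, Dlx2, Dlx6os1, Cd24a, Tubb3 and Igfbpl1. It could hold no more than 3 UMIs of C1qa, Ctss, Cldn5 and Mog together and no more than 1 UMI of Folr1 and Foxj1 together, which removes barcodes rich in RNA of microglia, endothelium, oligodendrocytes, choroid plexus or ependyma. This gave 382 neuroblasts among 60717 barcodes that passed the quality limits, or 0.629%, of 74993 deposited barcodes. The cells were thus chosen by measured counts of these genes, and the levels of the 8 marker genes are given as a description that supports nothing.

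All animals were male targeted replacement mice, which carry human APOE in the place of their own gene, either APOE3 (APOE33 mice) or APOE4 (APOE44 mice). The groups were APOE3 mice given NaCl, APOE3 mice given lipopolysaccharide (LPS, a bacterial cell wall component that sets off inflammation) at 5 mg/kg into the abdomen, and the same pair of treatments in APOE4 mice, with brains taken 24 h after LPS. Series of 4 values below are always in the order APOE3 with NaCl, APOE3 with LPS, APOE4 with NaCl, APOE4 with LPS. Each of the 4 groups was 1 library that pooled the cells of 3 mice, and no cell could be traced to its mouse. With 1 library in each group there is no replicate check and no test between conditions: intervals below are exact 95% intervals that cover counting error only, and each difference compares 2 libraries.

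Neuroblasts keep being made in the adult mouse brain in the wall of the lateral ventricles and in the dentate gyrus. Ventricular stem cells give rise to fast-dividing progenitors that come to express Dlx genes, and their daughters migrate in chains to the olfactory bulb, where most become GABAergic interneurons. Dentate neuroblasts instead pass through a Neurod1 and Eomes stage towards glutamatergic granule neurons. Doublecortin, the product of Dcx, binds microtubules in migrating young neurons, and Sox11 and the Dlx genes encode transcription factors of newborn neurons.

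The library of LPS-treated APOE4 mice stood apart from the others. Only 61.9% of its deposited barcodes passed the quality limits, against 92.6% to 93.7% in the other 3 libraries, and its quality-passing barcodes had a median of 2311 UMIs, against 4150 to 5954. Library totals ran from 73288965 to 114378032 UMIs. Pairs of libraries shared 61 to 140 barcode sequences, and no neuroblast barcode was shared between libraries. The UMIs of the neuroblasts summed to 824551, 738165, 660671 and 407381, and the 10 deepest neuroblasts held between 23.2% (APOE3 NaCl) and 47.1% (APOE4 LPS) of these. A library's summed level can therefore rest on few cells, and the share of a gene's UMIs that came from its top cell is given where it is high.

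The number of neuroblasts was highest in the library of NaCl-treated APOE3 mice and lowest in that of LPS-treated APOE4 mice. The 4 libraries gave 132 of 14404 quality-passing barcodes (0.916%, interval 0.767% to 1.09%), 97 of 15060 (0.644%, 0.523% to 0.785%), 90 of 13071 (0.689%, 0.554% to 0.846%) and 63 of 18182 (0.346%, 0.266% to 0.443%). The limit on C1qa, Ctss, Cldn5 and Mog was exceeded by 21 of 158, 24 of 122, 12 of 103 and 24 of 91 barcodes with enough markers. Before the limits on genes of other classes, the shares were 1.097%, 0.81%, 0.788% and 0.5005%, with APOE4 LPS also lowest. A deeper barcode passes the marker rule more easily, so the marker rule was also applied to barcodes thinned to 1000 UMIs each. The thinned shares were 0.458%, 0.385%, 0.337% and 0.214% in the same order. The APOE4 LPS share stayed below the others, its interval of 0.153% to 0.293% meeting those of APOE4 NaCl (0.245% to 0.452%) and, at its upper edge, of APOE3 LPS (0.293% to 0.498%).

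The shares also move with what else was in each suspension. Microglia-gate barcodes, which pass a marker gate for microglia and no other, numbered 3020 and 2759 in the NaCl libraries and 4159 and 4281 in the LPS libraries. Against barcodes that passed the astrocyte gate alone, neuroblasts came to 3.15, 3.105, 2.50 and 2.50 per 100, with overlapping intervals throughout. Against microglia the numbers were 4.37, 2.33, 3.26 and 1.47 per 100. Per 100 barcodes of the astrocyte gate alone, the LPS and NaCl libraries of either genotype thus had nearly the same number of neuroblasts. The gate alone held 4195, 3124, 3607 and 2522 barcodes. It leaves out barcodes that also passed another gate, while neuroblasts that did so were kept. With such barcodes included, 45.8%, 41.1%, 41.6% and 49.4% of the other quality-passing barcodes passed the astrocyte gate. The near equality is therefore stated for the gate alone. Oligodendrocyte precursors (OPCs) gave another order: against the 100, 135, 120 and 39 barcodes of the OPC gate alone, neuroblasts came to 132, 71.9, 75 and 162 per 100, lower with LPS in APOE3 and higher with LPS in APOE4 (intervals 56.4 to 99.4 and 107 to 247). The direction of the LPS difference thus depends on the class it is counted against. In a dissociated suspension, fewer neuroblasts in the tissue and fewer recovered cells cannot be told apart.

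**Figure D1:**
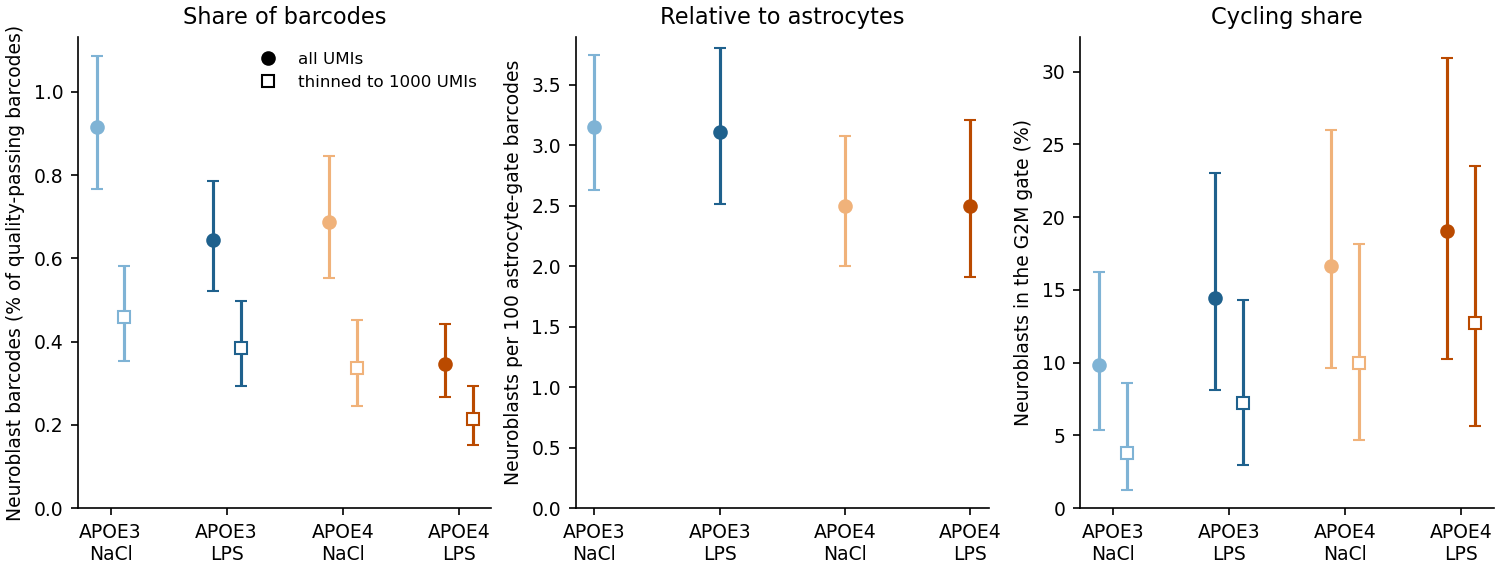
Left, neuroblasts as a percentage of quality-passing barcodes in each library, with all UMIs (circles) and after thinning to 1000 UMIs (squares); middle, neuroblasts per 100 barcodes of the astrocyte gate alone; right, the percentage of neuroblasts that passed the G2M gate. Bars are exact 95% intervals for counting error. From APOE3 NaCl to APOE4 LPS the value goes from 0.916% to 0.346% on the left. In the middle panel it goes from 3.15 to 2.50, with overlapping intervals.

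Cells just inside the rule differed in depth and makeup from the rest, in a way that varied between libraries. Between 62.2% and 78.4% of the neuroblasts of a library had 6 or more of the 8 markers, and 10 to 19 cells a library had exactly 4. Cells with 4 markers had median depths of 8625, 9363, 7194 and 1667 UMIs, against 4060.5, 5655, 4519 and 3414 for all neuroblasts, so they were deeper in 3 libraries and shallower in APOE4 LPS. A mature neuron gate was passed by 42.1%, 60%, 64.7% and 20% of them, and an oligodendrocyte gate by 40% in APOE4 LPS and at most 5.26% elsewhere. Sox11 was at 366 to 667 CPM (the summed UMIs of a gene in a group of cells per 1000000 of their UMIs) in cells with 4 markers and at 113 to 171 CPM in barcodes with 3, just outside. Sox11 is itself a gene of the rule, so this difference is partly built in by the split. Of the barcodes just outside, 57.1% to 81.1% passed the mature neuron gate.

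The label was checked against genes the rule did not use, all read from the same cells. Each of 22 neuroblast genes outside the rule was higher in neuroblasts than in all other barcodes of each library. The mature neuron list was also higher there, at 2552, 2395, 3218 and 2099 CPM against 393, 329, 717 and 346 CPM outside. A comparison with all other barcodes thus does not separate neuroblasts from mature neurons. Sox4, a close relative of Sox11, was at 1377, 1601, 1020 and 1137 CPM, and the other barcodes had 42.7 to 69.1 CPM. Stmn2, which encodes a tubulin-binding protein of growing axons, was at 687 to 831 CPM, and Dpysl3, a growth cone protein, at 337 to 497 CPM, against at most 33.0 and 9.66 CPM outside. Meis2 and Pbx3, transcription factors of olfactory bulb interneurons, reached 1033 to 1987 CPM and 665 to 1394 CPM. Detection varied widely: Stmn1 had a UMI in 93.7% to 96.9% of the neuroblasts of a library, Pbx3 in 57.1% to 75.3%, and Gap43, an axon growth protein, in 25.6% to 35.1%.

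**Figure D2:**
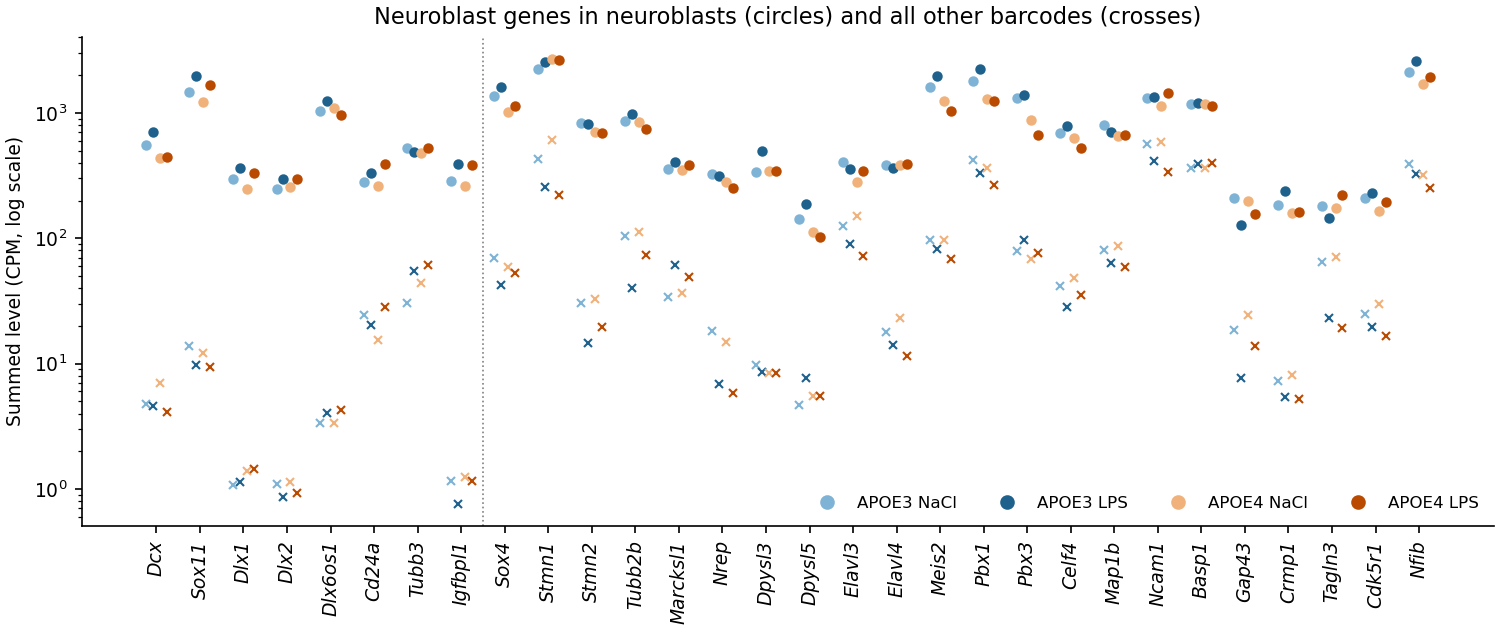
Summed level in CPM on a log axis of the 8 genes of the rule (left of the dotted line) and of the 22 neuroblast genes outside it, in neuroblasts (circles) and in all other quality-passing barcodes (crosses) of each library. Each circle lies above the cross of its library; Sox11 is at 1226 to 1982 CPM in neuroblasts and at 9.33 to 13.9 CPM outside.

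The rule favours GABAergic cells, since Dlx1, Dlx2 and Dlx6os1 are among its 8 genes, so the makeup given here is a description of the chosen cells. A gate of at least 2 GABAergic fate genes was passed by 370 of 382 (96.9%, interval 94.6% to 98.4%), and a gate of at least 2 glutamatergic fate genes by 13 (3.40%). Nrxn3, a gene of the GABAergic list, had a UMI in 94.4% to 99.2% of the neuroblasts of a library. In most cells that gate thus asked for 1 gene more. Nrxn3 made up 9292 of the list's 11496 CPM in APOE3 NaCl, and OPCs had 3010 to 3771 CPM of the list. Gad2, an enzyme that makes GABA, had a UMI in 66.7% to 83.3% of the neuroblasts of a library, and Sp9, a transcription factor of these interneurons, in 50.8% to 70.1%. The barcodes with 3 markers, just outside the rule, passed the GABAergic gate at 82% to 89.2%. After thinning to 1000 UMIs the GABAergic share was still 78.9% to 88.6%, and the share in the other barcodes, unthinned, was 7.73% to 13.0%. Eomes had a UMI in 0.758% to 1.59% of the cells and Neurod1 in 1.52% to 3.09%, at median depths of 3414 to 5655 UMIs. Prox1, a transcription factor of dentate granule neurons that other interneurons also make, was in 47.8% to 62.9%.

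Among all genes, the 12 that stood highest in neuroblasts against the other barcodes, by the smallest lower bound over the 4 libraries, fell into 2 kinds. The first were noncoding or poorly known transcripts beside markers, such as Dlx1as, which is antisense to Dlx1 and was at 159 to 232 CPM against at most 3.101 outside, Gm38505 at 852 to 1266 CPM, and Gm29260 and Gm14204. The others were genes of dividing cells: Pclaf, a partner of the replication clamp, at 189 to 389 CPM, Pbk, Hist1h1b, Neil3, Ttk, Lockd and Ccnd2. Ccnd2, a cyclin of neural progenitors, was the most abundant, at 1604 to 2624 CPM and in 76.7% to 90.7% of the cells. Mex3a, which encodes an RNA-binding protein, was at 83.2 to 145 CPM. These genes come from the same cells as the rule and are a description.

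Dividing cells were a minority, and their share did not differ between libraries beyond its wide intervals. A gate of at least 3 of 12 G2M genes was passed by 13 of 132 neuroblasts (9.85%, interval 5.35% to 16.3%), 14 of 97 (14.4%, 8.12% to 23.03%), 15 of 90 (16.7%, 9.64% to 26.0%) and 12 of 63 (19.0%, 10.2% to 30.9%). All 4 intervals overlap. Cycling cells were deeper, with median UMIs of 9004 to 14202 against 2775 to 5181 for the rest, and after thinning the shares were 3.79%, 7.22%, 10% and 12.7%. Of the 54 cycling cells, 49 also passed a gate of at least 3 transit amplifying progenitor genes and 51 the GABAergic gate. The progenitor gate itself was passed by 114 of 382 cells, and after thinning by 1.03% to 6.67% of a library, so that share follows depth.

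Some neuroblasts also carried genes of another cell class. No doublet caller was run. The rule limits 6 genes of other classes, and 41 of 132, 30 of 97, 29 of 90 and 26 of 63 neuroblasts still passed a gate for another class. Over all 382 cells, 60 passed the astrocyte gate, 55 the mature neuron gate, 16 the microglia gate and 13 the oligodendrocyte gate. Among the cycling cells, 1 of 13, 7 of 14, 5 of 15 and 5 of 12 passed the astrocyte gate. Stem cells of the ventricle wall share genes with astrocytes, but the cause of these passes was not tested. Of all neuroblasts, 13.6%, 16.5%, 12.2% and 23.8% passed the astrocyte gate, and after thinning 7.58%, 4.12%, 5.56% and 6.35% did. Microglia genes, as a list of 8, summed to 81.3, 135, 75.7 and 250 CPM in neuroblasts and to 17398 to 26320 CPM in microglia. Many of the results below are also given without these cells. Without them, 91, 67, 61 and 37 neuroblasts were left. The cells left out were the smaller number but held the larger part of the summed neuroblast UMIs in each library. Levels given for all neuroblasts therefore rest in large part on cells that passed another class gate.

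Of the genes named below, Fkbp5, Jund, Robo2, Isg15 and those found in both genotypes or both treatments were chosen after their values were seen. The first question is how neuroblasts differed between LPS and NaCl in APOE3 mice. A gene was measured when it had at least 20 UMIs in either library, and called at a 1.5-fold ratio of CPM, on the log2(CPM + 1) scale. Of 7535 genes, 632 were higher after LPS (8.39%) and 987 lower (13.1%), with a median log2 ratio of -0.04. In APOE4 mice 545 of 6439 genes were higher (8.46%) and 1169 lower (18.2%), with a median of -0.07. These shares are the background against which the lists below are read.

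Interferon-stimulated genes were higher after LPS in neuroblasts of both genotypes, at levels below those of astrocytes and microglia. Of 30 interferon-stimulated genes in the files, 2 reached 20 UMIs, Ifi27 and Ifitm3, and both were higher after LPS in both genotypes. Summed, the list was at 122 CPM (99.8 to 149), 336 (295 to 380), 110 (86.6 to 139) and 1043 (946 to 1147). Astrocytes had 406, 1080, 362 and 1646 CPM and microglia 811, 2546, 887 and 2144 CPM. The neuroblast level was below both in every library. OPCs had 330, 1036, 314 and 799 CPM, above neuroblasts in 3 libraries and below them in APOE4 LPS. Of the 425 UMIs in APOE4 LPS, 260 were of Ifitm3, a membrane protein that blocks virus entry, and 1 cell held 89.6% of these.

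Without the cells that passed another class gate, the interferon list stood at 60.6 CPM (38.4 to 90.9), 156 (117 to 204), 58.4 (33.4 to 94.9) and 209 (145 to 293). It was thus still higher after LPS in both genotypes, with intervals that do not overlap, while the intervals of the LPS libraries overlapped each other. Ifi27, a mitochondrial interferon-induced protein, followed the same order: 34.0, 73.2, 27.2 and 110.5 CPM in all neuroblasts, or 2.15-fold (1.34 to 3.53) and 4.05-fold (2.30 to 7.44) higher after LPS. In the restricted cells Ifi27 was at 18.4, 54.9, 18.3 and 61.6 CPM. Thinned to 1000 UMIs, 8.33%, 19.6%, 15.6% and 33.3% of neuroblasts had an interferon list UMI (unthinned 37.9%, 54.6%, 37.8% and 66.7%), against 26.1%, 46.3%, 26.9% and 60.0% of astrocytes and 49.5%, 84.5%, 50.3% and 81.5% of microglia. The other barcodes moved the same way, at 847, 2356, 711 and 2297 CPM, and the part of their RNA in these levels was not tested.

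**Figure D3:**
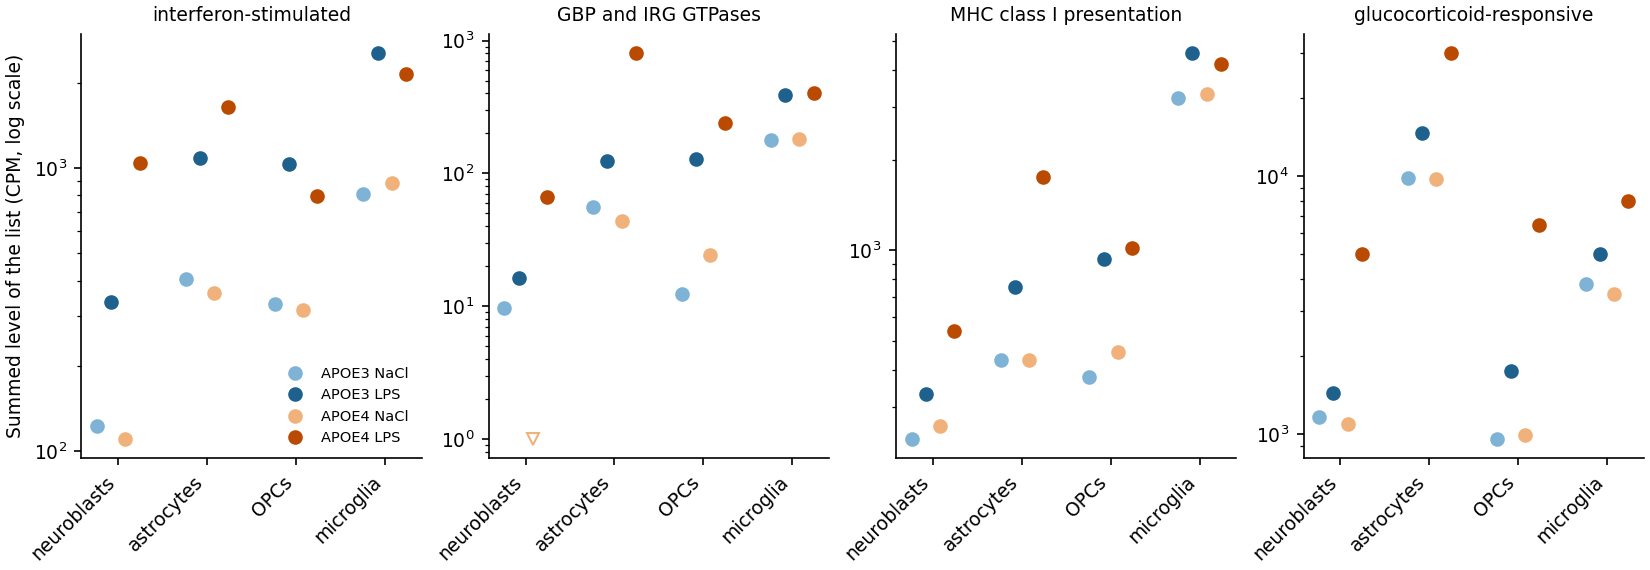
Summed level in CPM, on a log axis, of 4 gene lists in neuroblasts, astrocytes, OPCs and microglia of each library; the open triangle marks a list with no UMI, drawn at 1. The interferon list in neuroblasts lies at 122, 336, 110 and 1043 CPM, below astrocytes and microglia of the same library.

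The 15 GBP and IRG genes, interferon-induced GTPases that attack vacuoles of pathogens, summed to 8, 12, 0 and 27 UMIs in neuroblasts, or 9.70, 16.3, 0 and 66.3 CPM, and none was measured. The same list was at 806 CPM in APOE4 LPS astrocytes. The MHC class I list, for antigen presentation, was at 235, 333, 260 and 538 CPM in neuroblasts and at 3221 to 4555 CPM in microglia. A UMI of it was in 62.1%, 70.1%, 60% and 74.6% of neuroblasts. B2m, the light chain of MHC class I, was at 12.1, 48.8, 31.8 and 83.5 CPM, against 477 to 1102.5 CPM in the other barcodes. The cells that passed no other class gate held 3, 4, 5 and 3 UMIs of B2m, so its difference after LPS is in the cells that carried genes of another class. For the same cells the MHC class I list was 248, 223, 263 and 277 CPM, with overlapping intervals.

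Part of these genes carry, in their promoters, the letters that interferon-activated factors bind. The windows below are from RefSeq promoters (GRCm38.p6, mm10, 250 bases before to 50 after each start site). Isg15 and B2m belong to the interferon and MHC class I lists, and Saa3 and Sgk1 are described further below. The capitals mark a match to GAAA, any 2 bases and GAAA, the letters of the interferon-stimulated response element, searched on both strands, or in the last window to ACANNNTGT, the letters of the glucocorticoid receptor. Each reads 5′ to 3′ along the gene.
Isg15, chr4:156200871-156200900, minus strand: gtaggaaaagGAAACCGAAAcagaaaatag
B2m, chr2:122147538-122147567, plus strand: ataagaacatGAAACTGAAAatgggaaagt
Saa3, chr7:46715782-46715811, minus strand: gttatcttctGAAAGAGAAAttatgggtaa
Sgk1, chr10:21993693-21993722, plus strand: atgcggaaagaACAGAATGTtctcggagat

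The Sgk1 window lies 178 to 186 bases before an annotated start site. In Isg15 the match lies 63 to 72 bases before the start site and overlaps 2 more matches, and in B2m it lies 130 to 139 bases before. Of the 24 interferon-stimulated genes that matched a promoter, 14 held the interferon letters (58.3%), and of the 17 MHC class I genes 5 (29.4%), against 3.99% of all 27018 genes with a promoter. Of the 10 G2M genes with a promoter, none held it. ACANNNTGT was in 5 of 21 glucocorticoid-responsive genes and in 7.90% of all genes, and TTCNNNGAA, the letters bound by STAT dimers, in 6 of the 24 interferon genes and 9.55% of all. Of 198 genes named by the extremes and list rules, 152 matched a promoter, 13 of them with the interferon letters (8.55%). A match is a description of the letters, not a bound site. Isg15, with its 3 overlapping matches, had 0, 1, 0 and 4 UMIs in neuroblasts, and 14.9, 61.4, 10.96 and 54.9 CPM in the other barcodes.

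Saa3 and Lcn2, acute phase genes that many brain cells make after LPS, were seen in LPS neuroblasts only at a small part of their level elsewhere. Saa3 was listed at 0 in both NaCl libraries, at 6.77 CPM in APOE3 LPS and at 113 CPM (82.7 to 151) in APOE4 LPS, where 33.3% of neuroblasts had a UMI. The other barcodes had 1028 and 4799 CPM in the LPS libraries. Lcn2 was at 348 and 307 CPM in the LPS libraries, and 1 cell held 98.1% and 88.8% of its UMIs; without cells of another class gate it was at 14.5 and 18.5 CPM. In cells that passed no other class gate Saa3 was at 0, 5.78, 0 and 92.4 CPM. The part of RNA from other cells in Saa3 was not tested.

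Immediate-early genes, which neurons switch on within minutes of a stimulus, were more often higher than lower after LPS. In APOE3, 4 of 9 measured genes were higher and none lower (median log2 0.57); in APOE4, 8 of 9 were higher and none lower (median 1.02). The difference between genotypes was not tested. The medians were 0.29 and 1.04 without cells of another class gate, and Fos, a subunit of AP-1, was at 234, 237, 168 and 370 CPM. Egr1, a zinc finger transcription factor, was at 268, 564, 409 and 948 CPM. The LPS value was 2.10-fold (1.78 to 2.49) higher in APOE3 and 2.32-fold (1.98 to 2.72) in APOE4, and 25.8%, 40.2%, 35.6% and 55.6% of neuroblasts had an Egr1 UMI. In cells that passed no other class gate Egr1 was at 493, 604, 303 and 1084 CPM, so the APOE3 difference was smaller there. Jund, also of AP-1, was at 235, 312, 280 and 518 CPM. The same list had medians of 0.10 and 0.69 in astrocytes and -0.22 and -0.50 in microglia.

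Of the 23 glucocorticoid-responsive genes, which are known to respond to stress hormone, 10 of 13 measured were higher after LPS in APOE4 and none lower (median 1.21), while in APOE3 4 of 12 were higher and 1 lower (median -0.06). Fkbp5, a chaperone that damps the glucocorticoid receptor, was at 38.8, 31.2, 34.8 and 78.6 CPM, or 2.26-fold (1.28 to 4.04) higher after LPS in APOE4. Its level in the other barcodes was 54.9, 316, 51.2 and 355 CPM, so it was higher after LPS there in both genotypes. In neuroblasts that passed no other class gate Fkbp5 was at 28.97, 28.9, 25.6 and 30.8 CPM, so the APOE4 difference was not there. Sgk1, a kinase whose promoter holds the receptor's letters shown above, was at 61.9, 43.4, 40.9 and 118 CPM, and at 5.27, 8.67, 7.31 and 24.6 CPM without cells of another class gate. Mt1, a metallothionein, was at 505, 400, 457 and 3041 CPM, and 1 cell held 55.9% of its UMIs in APOE4 LPS. Mt1 was at 145, 165, 172 and 517 CPM when cells of another class gate were left out. The median for this list in astrocytes was 0.93 in APOE3 and 1.59 in APOE4. Without each gene's top cell the APOE4 median was 0.76, and in cells that passed no other class gate the list sum was 566, 674, 599 and 1207 CPM.

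G2M genes were higher after LPS when all neuroblasts were summed, 11 of 12 in APOE3 (median log2 1.18) and 8 of 11 in APOE4 (median 0.84), none lower. Top2a, the topoisomerase of dividing cells, was at 204, 379, 288 and 569 CPM. In APOE3 the direction rests on cells that passed the astrocyte gate: without cells of another class gate, the APOE3 median was -0.72 and Top2a was at 406, 231, 369 and 862 CPM. The APOE4 median without them was 1.22. Cycling cells left by that restriction numbered 12, 7, 9 and 7. S phase genes differed less, with 2 of 11 higher in APOE3 and 1 of 8 in APOE4 (medians 0.16 and -0.00087), and the APOE3 median was -0.45 without cells of another class gate.

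Few neuroblast genes were past the fold between LPS and NaCl, while part of the progenitor genes were higher. Of the 22 neuroblast genes outside the rule, none was higher and 1 lower in APOE3 (median 0.15), and none was past the fold in APOE4 (median -0.02). The 1 was Gap43, at 211 and 127 CPM in APOE3, and at 116 and 89.6 CPM without cells of another class gate. Of the transit amplifying progenitor list, 3 of 7 measured genes were higher in APOE3 (median 0.41) and 2 of 7 in APOE4 (median -0.08), none lower. The list summed to 663, 916, 745 and 871 CPM, and without cells of another class gate to 798, 757, 712 and 1158 CPM, where the APOE4 intervals did not overlap and the APOE3 difference was gone. Insm1, a transcription factor of newborn neurons leaving the cycle, was at 98.2, 156, 83.2 and 214 CPM, or 1.59-fold (1.18 to 2.13) and 2.57-fold (1.81 to 3.66) higher after LPS. It was at 176, 165, 76.7 and 308 CPM without cells of another class gate, so the APOE3 difference was not there.

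Synapse and excitability genes were lower after LPS in APOE4 when all neuroblasts were summed, 14 of 25 lower and 1 higher (median -0.88), against 4 lower of 25 in APOE3 (median -0.16). Gria1, an AMPA receptor subunit, was at 205, 157, 383 and 103 CPM. The mature neuron gate was passed by 19 of 132, 13 of 97, 18 of 90 and 5 of 63 neuroblasts, so these cells were most frequent in APOE4 NaCl and least in APOE4 LPS. Without cells of another class gate the APOE4 median was -0.21, the mature neuron list was at 464, 509, 489 and 370 CPM, and Gria1 had 9, 4, 3 and 0 UMIs. Syt1, a sensor of calcium in synaptic vesicles, was at 876, 918, 1202 and 650 CPM in all neuroblasts, and at 205, 249, 216 and 179 CPM without cells of another class gate.

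Housekeeping lists differed little between treatments. None of 34 cytosolic ribosomal protein genes passed the fold in either genotype (medians 0.06 and 0.24), and of 40 nuclear oxidative phosphorylation genes 3 were lower in APOE3 and none in APOE4. Cholesterol synthesis genes were lower in APOE3, 5 of 15 (median -0.41), among them Fdft1, the squalene synthase, at 92.2 and 54.2 CPM. In APOE4 1 of 13 was higher and none lower, with Fdft1 at 87.8 and 90.8 CPM. Astrocytes had a median of -0.50 for this list in either genotype.

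The LPS comparisons of the 2 genotypes share no library, so genes past the fold in both can be counted. Of 6208 genes measured in both, 425 were higher in APOE3 and 513 in APOE4, and 91 in both, which is 21.4% of the first and 17.7% of the second. Over all 6208 genes, 6.85% were higher in APOE3 and 8.26% in APOE4. Lower were 645 and 1056, and 206 in both, 31.9% and 19.5%, while over all 6208 genes 10.4% were lower in APOE3 and 17.0% in APOE4. Another 75 were higher in APOE3 and lower in APOE4, and 62 the reverse. A rule set after the values were seen then asked for an interval off 1 in both genotypes, a UMI in at least 20% of the cells with no cell over 20% of the UMIs on the higher side, and the same direction past the fold without cells of another class gate. It left 3 genes higher after LPS and 8 lower. Without cells of another class gate the intervals of 1 of these 11 genes, mt-Atp8, were off 1 in both genotypes.

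The 3 higher genes were Cdkn2d, Pdcd6 and Hars. Cdkn2d, an inhibitor of cyclin-dependent kinases, was at 32.7, 69.1, 52.98 and 95.7 CPM, or 2.11-fold (1.30 to 3.50) and 1.81-fold (1.12 to 2.94) higher. Its level in the other barcodes was 26.4 to 37.1 CPM. Pdcd6, a calcium-binding protein of the secretory pathway, was at 36.4, 70.4, 49.9 and 93.3 CPM, and Hars, the histidyl-tRNA synthetase, at 24.3, 44.7, 31.8 and 66.3 CPM.

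Lower after LPS in both genotypes were 8 genes. Rpn1, a subunit of the enzyme that adds sugar chains to proteins, was at 107, 36.6, 101 and 61.4 CPM, or 2.92-fold (1.88 to 4.67) and 1.65-fold (1.03 to 2.73) lower after LPS. Plppr3, a membrane protein of growing axons, was at 95.8, 62.3, 90.8 and 54.0 CPM against 2.62 to 5.76 CPM in the other barcodes. Nexmif, a gene of neurite growth, was at 98.2, 43.4, 72.7 and 29.5 CPM, Abhd12, a lipid hydrolase, at 89.7, 51.5, 95.4 and 51.5 CPM, and mt-Atp8, a mitochondrially encoded subunit of ATP synthase, at 230, 118, 224 and 137 CPM. With each cell weighted equally, Abhd12 was not lower in APOE4 (log2 0.050). The lower level of mt-Atp8 was also in the other barcodes, at 267, 134, 316 and 180 CPM. The remaining 3 were Gabrb1, Ahcyl2 and Spock2.

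The second question is how APOE4 neuroblasts differed from APOE3 ones. Without LPS, 699 of 7459 measured genes were higher in APOE4 (9.37%) and 733 lower (9.83%). After LPS, 715 of 6624 were higher (10.8%) and 1089 lower (16.4%), and this comparison holds the shallow APOE4 LPS library. The 2 comparisons share no library. Of 6317 genes measured in both, 91 were higher in both (19.1% of 477 and 13.6% of 671) and 127 lower in both (27.4% of 463 and 13.2% of 964). Over all 6317 genes, 7.55% were higher without LPS and 10.6% after LPS, and 7.33% and 15.3% were lower. Another 104 were higher in APOE4 without LPS and lower after LPS, and 64 the reverse.

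By the same rule as for LPS, 14 genes were lower in APOE4 neuroblasts in both treatments. The intervals of 10 of the 14 were off 1 without cells of another class gate in both treatments. Il1rapl1, a synaptic adhesion protein, was at 1156, 1111, 675 and 574 CPM, or 1.71-fold (1.53 to 1.92) lower without and 1.93-fold (1.67 to 2.25) lower after LPS. Both APOE3 libraries were above both APOE4 ones. With barcodes of 3 or more markers counted, its difference without LPS was gone (log2 0.035). Foxp2, a transcription factor of striatal and some olfactory bulb neurons, was at 489, 517, 221 and 214 CPM, or 2.21-fold (1.83 to 2.69) and 2.42-fold (1.92 to 3.09) lower, and 59.1%, 52.6%, 40% and 31.7% of neuroblasts had a UMI. In cells that passed no other class gate Foxp2 was at 732, 916, 405 and 480 CPM. Its level in the other barcodes was 25.4 to 34.9 CPM.

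Plcb4, a phospholipase C, was at 264, 238, 115 and 85.9 CPM, or 2.30-fold (1.76 to 3.02) and 2.78-fold (1.92 to 4.11) lower in APOE4. Sdk2, a synaptic adhesion protein of the immunoglobulin family, was at 154, 179, 59.0 and 83.5 CPM, or 2.61-fold (1.81 to 3.84) and 2.14-fold (1.46 to 3.22) lower. Neither gene's intervals overlapped between genotypes in either treatment, but the rule chose genes by intervals off 1, so this adds no support. Maml3, a coactivator of Notch signalling, was at 466, 620.5, 288 and 356 CPM, and Kat6b, a histone acetyltransferase, at 335, 366, 216 and 194 CPM. Ncam2, an adhesion molecule of olfactory neurons, was at 642, 553, 359 and 106 CPM. Kcnq1ot1, Syn3, Scrt1, Trerf1 and Fam171a1 were also among the 14, as was Gm47283.

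Gm47283 had the widest ratio without LPS among the 14, at 130, 129, 7.57 and 24.5 CPM, or 17.15-fold (7.12 to 53.9) and 5.24-fold (2.73 to 11.3) lower in APOE4. The same difference was in the other barcodes, at 57.0, 52.7, 6.74 and 14.9 CPM, so it is not particular to neuroblasts.

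Higher in APOE4 in both treatments were 8 genes, and without cells of another class gate the intervals of 4 of them (Clic1, Crip2, March5 and Ndufa3) were off 1 in both. Stub1, a ubiquitin ligase that tags misfolded proteins, was at 66.7, 71.8, 118 and 120 CPM, or 1.77-fold (1.24 to 2.55) and 1.68-fold (1.11 to 2.52) higher. March5, a ubiquitin ligase of the mitochondrial outer membrane, was at 54.6, 62.3, 87.8 and 98.2 CPM, Tceal8 at 34.0, 39.3, 72.7 and 68.7 CPM, and Rsl24d1, a factor of ribosome assembly, at 35.2, 33.9, 63.6 and 83.5 CPM. For these 4 genes the other barcodes differed by less, for instance 75.9, 72.5, 84.1 and 78.6 CPM for Stub1. Ndufa3, a subunit of respiratory complex I, was at 148, 137, 241 and 218 CPM, and it was also higher in the other APOE4 barcodes, at 289 and 250 against 192 and 146 CPM. Crip2, Clic1 and 0610010K14Rik were the remaining 3.

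**Figure D4:**
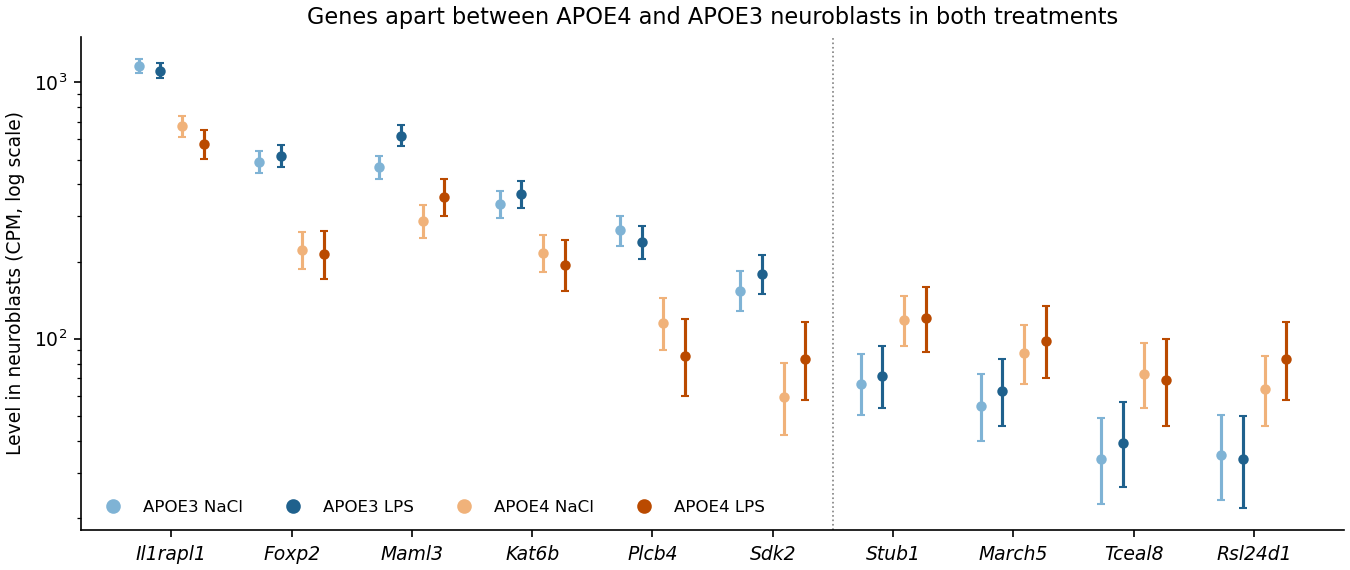
Level in CPM, on a log axis, of 10 genes in the neuroblasts of each library, with exact 95% Poisson intervals for counting error; left of the dotted line are genes lower in APOE4 and right of it genes higher in APOE4, in both treatments. Foxp2 is at 489 and 517 CPM in the APOE3 libraries and at 221 and 214 CPM in the APOE4 libraries.

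As groups, genes of migration and of neuronal identity were more often lower than higher in APOE4 neuroblasts after LPS. Of 32 measured migration and guidance genes 13 were lower and 1 higher (median -0.39), and without LPS 6 of 36 were lower and 2 higher (median -0.19). Erbb4, the neuregulin receptor that steers these cells, was at 3409, 4473, 3171 and 1831 CPM, or 2.44-fold lower in APOE4 after LPS and 1.08-fold lower without. Robo2, a receptor for Slit guidance cues, was at 1082, 1054, 722 and 422 CPM. Without cells of another class gate Erbb4 was at 4767, 5516, 4256 and 3104 CPM and Robo2 at 1583, 1382, 1235 and 671 CPM, so APOE4 LPS stayed lowest.

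Of 31 neurogenic transcription factors, 9 were lower and none higher in APOE4 after LPS (median -0.36), and 3 were lower and 1 higher without LPS (median -0.24). Meis2 was at 1607, 1987, 1240 and 1033 CPM and Pbx3 at 1326, 1394, 876 and 665 CPM. Pbx3 was lower in APOE4 in both treatments, 1.51-fold (1.37 to 1.67) and 2.10-fold (1.83 to 2.40). Without cells of another class gate Pbx3 was at 2078, 2443, 1731.5 and 1299.5 CPM, so its difference without LPS was smaller there. Of 10 GABAergic genes 3 were lower after LPS, with Gad2 at 643, 837, 764 and 415 CPM, and 2 were lower without LPS. In cells that passed no other class gate Gad2 was at 558, 731, 687 and 487 CPM. Of the 8 rule markers 1 was past the fold after LPS, but the cells were chosen by these genes, so this supports nothing.

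Nuclear oxidative phosphorylation genes went the other way after LPS, 14 of 40 higher in APOE4 and none lower (median 0.49), against 1 of 40 without LPS (median 0.20). Ndufa7 of complex I was at 317, 207, 304 and 388 CPM and Uqcrq of complex III at 281, 224, 285 and 395 CPM. The median was 0.45 without cells of another class gate. The list then summed to 14691, 11301, 16040 and 15083 CPM, lowest in APOE3 LPS, and APOE4 LPS was not above APOE4 NaCl. Ndufa7 was at 406, 246, 329 and 363 CPM in these cells. The list's medians after LPS in astrocytes and microglia were 0.10 and 0.46. The part that the low depth of the APOE4 LPS library plays in these group differences was not tested, and genotype and library cannot be told apart.

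**Figure D5:**
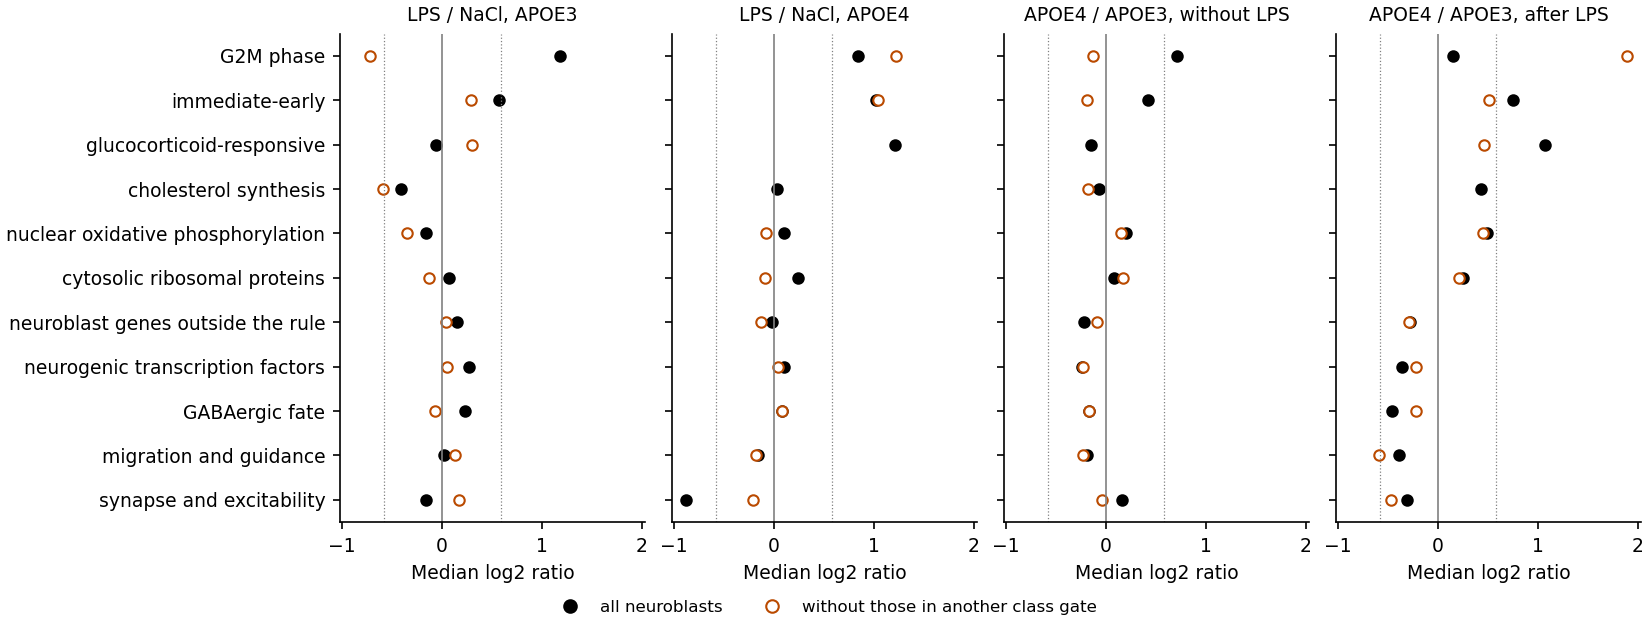
Median log2 ratio of the measured genes of 11 lists in the 4 comparisons, for all neuroblasts (filled) and without those that passed another class gate (open; absent where under 5 genes were measured). Dotted lines mark 1.5-fold; the G2M list in APOE3 goes from 1.18 to -0.72, and oxidative phosphorylation in the last panel from 0.49 to 0.45.

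Mouse Apoe, the replaced gene, had 43, 28, 19 and 14 UMIs in neuroblasts, or 52.1, 37.9, 28.8 and 34.4 CPM, and 95.5, 75.1, 85.5 and 77.2 CPM in the other barcodes. The files list no separate human gene, so these are the reads that the mouse gene model took up, and they do not check the genotype labels.

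The genes with the widest ratios were mostly those of single cells. Of the 12 highest after LPS in APOE3, all 12 had more than 50% of their UMIs in 1 cell, and of the 12 lowest 9 did. In the other comparisons it was 7 to 11 of 12. S100a8, a neutrophil protein, had 820 UMIs in APOE3 LPS, 814 of them in 1 cell, and Hbb-bs, a haemoglobin, had 2432 in APOE3 NaCl, 2420 of them in 1 cell. Lcn2, Ifitm3, Saa3, Mt1 and Gm47283, described above, were also among the genes with the widest ratios.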

How the data were processed

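Whole-number UMI counts per gene and barcode were used as deposited; the authors made them with cellranger 7.0.1, per the file headers (Cell Ranger 7.0 and mm10 per the submitters' processing notes), from 10x 3′ libraries, per the labels' protocols. Whether intronic reads were counted is not given in the sources used here. The files hold 32285 genes, and groups came from the labels. Neuroblast UMIs were summed per library and expressed as CPM. Ratios carry exact conditional binomial (Clopper-Pearson) 95% intervals, sums exact Poisson and shares exact binomial intervals; UMI sampling in 4 unreplicated libraries sets this precision, and no p-value is given. Genes needed 20 UMIs in either library, and log2 values use a pseudocount of 1 CPM. Astrocytes, OPCs and microglia passed their own gate (at least 3 genes of their list) and no other.

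Named genes were the rule markers and 22 neuroblast genes, the 12 highest against other barcodes, per comparison the 12 highest by lower and 12 lowest by upper bound, per list the 2 furthest each way, Apoe, and genes with opposite LPS directions. Some genes that this rule names are not reported here. Members and the 43 lists were chosen with earlier results of these data known. Alternatives changed the marker minimum, quality limits, other-class and cycling cells, scale, weighting, pseudocount, UMI minimum and deepest cells. Columns not used numbered 0. Scripts ran in Python 3.11.15 with numpy 2.4.6, scipy 1.17.1 and pandas 2.3.3, and were tested on simulated data.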

Additional observations from a re-analysis of the deposited data

Results flagged for a closer look

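Some results had opposite directions after LPS in APOE3 and APOE4 neuroblasts, and with 1 library a group the difference was not tested. Those named here are a part of them. Of 6208 genes measured in both genotypes, 75 were higher in APOE3 and lower in APOE4, and 62 the reverse. Past the fold in the same direction were 91 higher and 206 lower. Erbb4 (LPS over NaCl 1.31 in APOE3 and 0.577 in APOE4) and Gad2 (1.30 and 0.543) also had intervals off 1 in opposite directions. Adarb2, an interneuron gene of the RNA-editing enzyme family, had a log2 ratio of LPS over NaCl of 0.63 in APOE3 and -1.61 in APOE4, and 1 cell held 40.0% of its UMIs in the APOE4 NaCl library. Adarb2 was at 2473, 3735, 1742 and 1207 CPM without cells of another class gate. The oligodendrocyte list had medians of -2.95 and 2.92. Neuroblasts that passed the oligodendrocyte gate numbered 6, 1, 0 and 6, so these values move with them. The choroid plexus list had medians of -2.60 and 1.03, from 2 measured genes.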

How the results depend on the processing

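No paired analysis was possible because each group is 1 library with replicate number 1; for the same reason no replicate could be left out. Over the alternatives, 133 of 1290 list medians changed sign, 2 of them past 1.5-fold at first, and 31 moved by over 1.5-fold. Leaving out cells of another class gate changed the sign of 23 of 70 list medians. Of 2657 values of named genes 142 changed sign, 17 of them past 1.5-fold at first. Series of 4 follow the order of the report.

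With 3 markers the neuroblast shares were 1.26%, 0.890%, 1.07% and 0.5005%, without cells of another class gate 0.632%, 0.445%, 0.467% and 0.203%, and thinned 0.458%, 0.385%, 0.337% and 0.214%. Thinning gave G2M shares of 3.79% and 7.22% in the APOE3 libraries, GABAergic shares of 88.6%, 84.5%, 78.9% and 79.4%, and progenitor shares of 2.27%, 1.03%, 6.67% and 1.59%. With 5 markers the GABAergic share was 100% in APOE3 NaCl and APOE4 LPS. Without cells of another class gate it was 100% in APOE4 LPS, and the glutamatergic share was 0% in APOE3 NaCl and APOE4 LPS.

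Counts of higher and lower genes follow the UMI minimum by construction. For LPS in APOE3 they were 220 and 337 from 50 UMIs, 3374 and 4476 from 1 UMI, and 418 and 463 without cells of another class gate. For LPS in APOE4 they were 146 and 457, 3714 and 4606, and 249 and 396, with 297 higher without each gene's top cell and 778 lower with 5 markers. For genotype without LPS they were 195 and 217, 3311 and 4129, and 223 and 482. For genotype after LPS they were 227 and 507, 3952 and 4478, with 391 higher without cells of another class gate and 382 higher without top cells.

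Without cells of another class gate the G2M median was -0.72 for LPS in APOE3 and -0.13 for genotype without LPS, and it went from 0.15 to 1.89 for genotype after LPS; for LPS in APOE3, Top2a was -0.81, Mki67 -0.52, Insm1 -0.098 and Tpx2 -0.0030, and for genotype without LPS Egr1 was -0.70, Tpx2 -0.13 and Mki67 -0.042. With 3 markers Junb (LPS in APOE3) was -0.25, and for genotype without LPS Sgk1 was 0.094 and Il1rapl1 0.035. With cells weighted equally Abhd12 (LPS in APOE4) was 0.050. For genotype after LPS with 5 markers B2m was -1.10, Ifitm3 -1.16 and Gria1 0.71. Without the deepest cells B2m was -0.34 and Rpn1 -0.21, and without its top cell B2m was -0.19. Apart from the UMI minimum and the number of cells, the cause was not tested. At 407381 UMIs, APOE4 LPS neuroblasts limit every comparison that uses them.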
